A study of Zea mays with 56 samples.

Results

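Pollen and endosperm of the same Mu-active maize plants were compared by sequencing the junctions between Mu transposons and the genome. The pairing took every plant with a pollen library and an endosperm library of the Mu-active genotype. That gave 13 plants, with 14 pollen libraries and 13 endosperm libraries, 27 of the 56 libraries of the series. Plant 79 had 2 pollen libraries, split after the DNA had been sheared, and these were averaged. Plant 74 was left out because the label of its endosperm names MuKiller. All 13 plants were W22 MuActive, from a Mu-active male crossed to a Mu-inactive female of the same W22 inbred, and were grown in a greenhouse. Endosperm was a chip of the kernel taken before sowing, and pollen was collected at maturity from the plant that grew from that kernel. DNA of both tissues was prepared by a CTAB method. Tissue and stage of sampling cannot be told apart. An endosperm sample is 1 kernel and a pollen sample is a pool of grains from 1 plant, and the labels give no sequencing run. Plants 42 and 52 carry the family number ND67 and the other 11 carry ND58. Labels of pollen 69 give both families, of which the title's ND58 was used, and those of pollen 99 name a pair of plants. Leaf of the Mu-inactive female parent line, 4 libraries from 3 plants, gave the background of the method.

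Mu elements are DNA transposons with long terminal inverted repeats, and the autonomous element MuDR encodes the transposase MURA. They duplicate a short target sequence on insertion and can insert throughout development, so a plant carries parental insertions in every cell and further insertions in small groups of cells. Endosperm is a triploid tissue that feeds the embryo and passes nothing to the next generation. Pollen carries the male germ line: its grains are products of meiosis and hold sperm cells beside a vegetative cell. Embryo and endosperm of a kernel come from separate fertilizations by sister sperm of 1 pollen grain, so parental insertions should be found in both, while insertions made after fertilization arise independently.

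The values are counts per insertion site. To set libraries of unequal depth on 1 scale, each count was divided by the reference level of its library, its median count over the 28 sites with 10 or more counts in all 50 undiluted libraries. The quotient is called relative abundance. Pollen libraries had reference levels of 69 to 7022 and endosperm libraries of 767.5 to 29232. Total counts were 7119 to 745604 in pollen and 45730 to 3222143 in endosperm. Both levels were at least 1000 in 8 plants (42, 52, 69, 76, 85, 99, 106 and 107), called the deep plants here. Pollen fell under 1000 in plants 75, 78, 79 and 83, and endosperm did so in plant 105. Each of the 14 pollen libraries shared most of its sites at 0.1 or more with the endosperm of the plant it was assigned to, 23 to 64 sites, against 11 to 19 sites with the next plant. The 2 pollen libraries with conflicting labels were among them. The plant of each library was checked in this way. DNA carries no expression marker by which the tissue could be checked.

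Pollen carried a higher load of de novo insertions than endosperm of the same plant. De novo sites were those with 1 or more counts that were seen in a single plant and were not inherited there. A site counted as inherited when both the endosperm and some pollen, leaf or root library of the plant held it at 0.1 or more. The load is the sum of relative abundances over de novo sites. It ran from 5.40 through a median of 11.6 to 36.2 in pollen and from 3.91 through 7.50 to 14.8 in endosperm. The ranges overlapped, and within plants the load was higher in pollen in 11 of 13. Means were 13.4 ± 7.74 in pollen and 7.90 ± 3.59 in endosperm (SD, n = 13). The mean log2 ratio was 0.74 (95% interval 0.29 to 1.19), a fold of 1.67 (1.22 to 2.28). The load counts copies relative to the reference sites, whose copies per genome were not measured. It does not give insertions per cell, and endosperm is triploid. The dosage ratio of 1.5, set out with the inherited sites below, lies within that interval. Insertions per cell were not compared. The exact two-sided sign-flip test over plants gave p = 0.00391, and p = 0.0176 after Benjamini-Hochberg adjustment over the 9 single-value comparisons of the tissues. In Mu-inactive leaf the load lay between 0.0128 and 0.0813, far under every pollen and endosperm value.

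**Figure D1:**
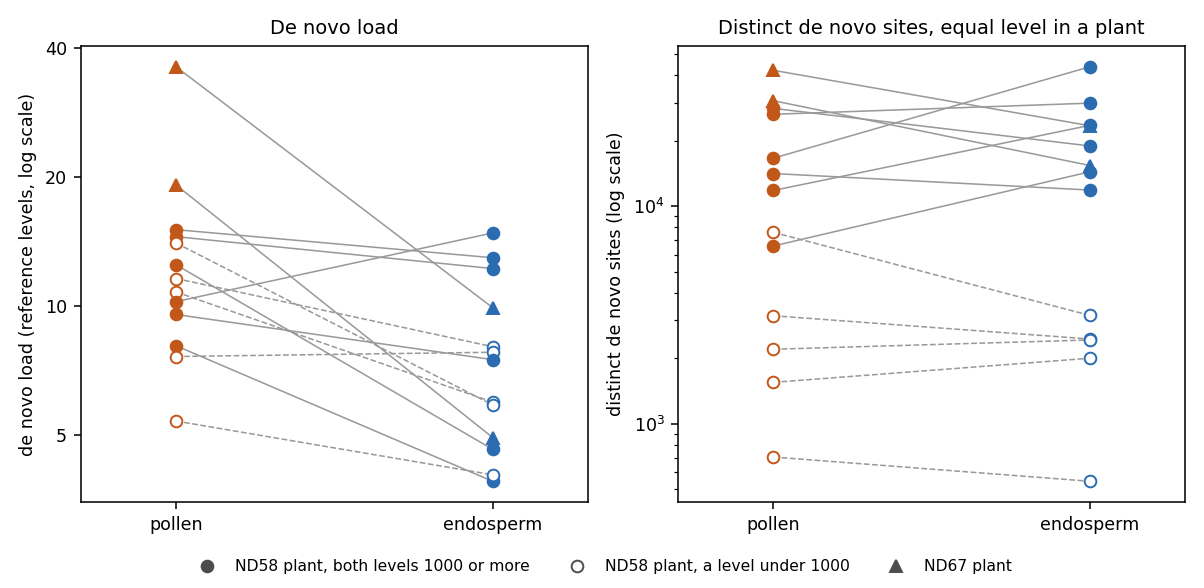
De novo load in units of the reference level (left, log axis) and distinct de novo sites after thinning to the same reference level within a plant (right, log axis), with each line joining pollen and endosperm of 1 plant. Open circles and dashed lines mark plants with a level under 1000 and triangles mark family ND67. Load was higher in pollen in 11 of 13 plants, and distinct sites were more numerous in pollen in 7 of 13.

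The difference in load was uneven among plants, as the paired lines of the load plot show. Plant 52 had 36.2 in pollen and 9.92 in endosperm, and plant 42 had 19.2 in pollen and 4.94 in endosperm. These are both plants of family ND67, with folds of 3.65 and 3.88, the largest of the 13. Plant 85 had the opposite order, with 10.2 in pollen and 14.8 in endosperm. In plant 83 the tissues were close, at 7.63 in pollen and 7.81 in endosperm. The other 9 plants had folds between 1.16 (plant 107) and 2.70 (plant 106). Without family ND67 the mean log2 ratio was 0.53 (exact sign-flip test, adjusted p = 0.0703), and in the 8 deep plants it was 0.82 (adjusted p = 0.105), so the call was lost in both. Across the 13 plants the log2 load ratio had a Pearson r of 0.30 with the log2 pollen level (permutation p = 0.318, adjusted over 2 relations p = 0.637). Spearman's rho was 0.29 (permutation p = 0.343, adjusted p = 0.527). Without the 2 plants farthest from the median level r was 0.17.

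Both libraries of pollen 79 gave nearly the same load, 11.6 each, at reference levels of 95.5 and 69. They shared only 87 de novo sites, which were 9.45% of the de novo sites in one and 12.1% in the other. In this pair the load was repeatable while the list of sites was mostly not.

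The number of distinct insertions did not show the difference seen in the load. Without thinning, pollen held a median of 14150 de novo sites and endosperm 40492. After the deeper library of each plant was thinned to the reference level of the shallower one, pollen had 704 to 42196 distinct sites with a median of 11826, and endosperm had 544 to 43837.6 with a median of 14420. The ranges overlapped almost entirely, and pollen held more sites in 7 of 13 plants. The mean log2 ratio was 0.03 (95% interval -0.47 to 0.54; exact sign-flip test, adjusted p = 0.921). The interval spans folds from 0.722 to 1.45, so a moderate difference either way was not detectable. An equal reference level is not an equal total count: thinned by library totals instead, the mean log2 ratio was -0.23 (adjusted p = 0.232). Plant 105 had the highest log2 ratio, 1.27, and plant 85 the lowest, -1.40. Sites with repeated counts behaved otherwise. When a site needed at least 2 counts after thinning, the mean log2 ratio was 1.26 (adjusted p = 0.011), and with at least 5 counts it was 2.08 (adjusted p = 0.0022). In the deep plants a de novo site carried a mean of 3.04 ± 0.463 counts in pollen and 2.19 ± 0.700 in endosperm (SD, n = 8), although endosperm had been sequenced more deeply. Whether a count is a read or a collapsed molecule is not given in the sources used here, and the part of amplification in these values was not tested.

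Pollen held many more de novo sites of high relative abundance. Sites at 0.01 or more, called abundant, were compared in the 8 deep plants, since in the shallowest library a single count already passes that value. Their number ran from 32 through a median of 66 to 223 in pollen and from 3 through 8.5 to 46 in endosperm, 783 sites in pollen and 99 in endosperm in all. Pollen had more in 8 of 8 plants. The mean difference in log2(number + 1) was 2.99 (95% interval 1.70 to 4.29), a fold of 7.96. The exact sign-flip test gave p = 0.00781, which 8 plants cannot undercut, and an adjusted p of 0.0176. Plant 107 had 154 in pollen and 5 in endosperm, and plant 42 had 75 in pollen and 3 in endosperm. Plant 85 stood apart, with 52 in pollen and 46 in endosperm. Thinning the endosperm to the reference level of the pollen, an alternative added after seeing the data, left the mean difference at 2.85, and requiring both Mu borders at each site left it at 2.90 (adjusted p = 0.0352). In Mu-inactive leaf 0 sites reached 0.01, and no de novo site there went above 0.000205.

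These sites took a larger share of the load in pollen. The share at abundant sites was 9.32% to 31.0% in pollen (median 16.1%) and 0.614% to 7.26% in endosperm (median 2.53%), and the ranges did not overlap. It averaged 18.1% ± 8.31 in pollen and 3.03% ± 2.26 in endosperm (SD, n = 8), a mean difference of 15.1 percentage points (95% interval 7.89 to 22.3; exact sign-flip test, adjusted p = 0.0176, with the same lowest possible p). The load at sites under 0.01 also had a higher mean in pollen, but not beyond the spread between plants. It ran from 7.16 through 10.2 to 29.9 in pollen and from 3.79 through 8.47 to 13.7 in endosperm. The mean log2 ratio was 0.57 (95% interval -0.20 to 1.34; higher in 5 of 8 plants; adjusted p = 0.210).

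**Figure D2:**
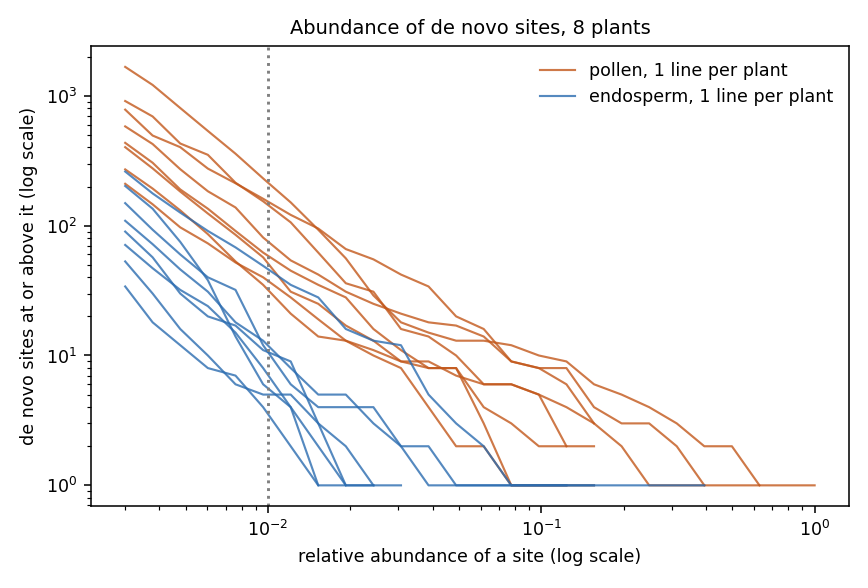
Number of de novo sites (log axis) at or above each relative abundance (log axis) in the 8 deep plants, 1 line per plant and tissue; the dotted line marks 0.01. At 0.01 pollen held 32 to 223 sites and endosperm 3 to 46, and 7 pollen sites against 1 endosperm site reached 0.3.

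Summed over the 8 plants, pollen held more sites in every class above 0.01. Sites from 0.01 up to 0.03 numbered 647 in pollen and 82 in endosperm, and sites from 0.03 up to 0.1 numbered 96 in pollen and 14 in endosperm. Plant 85 held many of the endosperm sites: 34 of the 82, where its pollen had 43, and 11 of the 14, where its pollen had 4. Without plant 85 these classes held 604 sites in pollen and 48 in endosperm, and 92 in pollen and 3 in endosperm. At 0.1 or more there were 40 sites in pollen and 3 in endosperm. Each deep pollen library had at least 1 such site, against 3 of the 8 endosperms. At 0.3 or more, there were 7 sites in 3 plants in pollen and 1 site in endosperm. Per plant, sites from 0.01 up to 0.03 gave a load of 1.23 ± 0.961 in pollen and 0.155 ± 0.149 in endosperm (SD, n = 8). Sites at 0.3 or more gave 0.5001 ± 0.706 in pollen and 0.0549 ± 0.155 in endosperm. The most abundant de novo site of a plant was higher in pollen in 13 of 13 plants. It lay between 0.0641 and 1.22 in pollen (median 0.186) and between 0.0157 and 0.439 in endosperm (median 0.0349). The shallow pollen libraries enter that count with few reads behind a site, so it is given without a test.

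The highest pollen site was in plant 69, on chromosome 7 at 179533765 to 179533773 in the coordinates of the files. Like 99.9942% of the sites it spans the 9 bp of a Mu target duplication. Pollen 69 had 1809 counts there, 1338 at the left border and 471 at the right, a relative abundance of 1.22 (95% exact Poisson interval 1.17 to 1.28, counting error only). The median of the inherited sites in the same library was 0.987, so this site stood at the height of a parental insertion. The endosperm and the root of plant 69 had 0 counts there, which allows up to 0.000232 in endosperm and 0.000141 in root. The next sites were both in pollen of plant 52, on chromosome 4 at 11001819 to 11001827 (0.681, interval 0.655 to 0.708) and at 160911135 to 160911143 (0.619, interval 0.594 to 0.644). The inherited sites of that library had a median of 0.920, and its endosperm had 0 counts at both. The rule for de novo sites cannot separate an insertion that reached the embryo alone from a later one.

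In endosperm the highest site was also in plant 69, on chromosome 2 at 55407252 to 55407260, with 5666 counts and a relative abundance of 0.439 (interval 0.428 to 0.451). Pollen 69 had 0 counts there, a limit of 0.00203, and the root had 0 as well. The next was in plant 83 on chromosome 1 at 72569854 to 72569862 (0.375, interval 0.364 to 0.385). Pollen 83 had 0 counts, which at its depth allows up to 0.0102, and leaf 83 had 0. The last was in plant 52 on chromosome 7 at 89724394 to 89724402 (0.174, interval 0.170 to 0.179), with 0 counts in its pollen. Each of these 6 sites was therefore seen in 1 library of its plant only. No genome of the files' build was used here, so neither genes nor sequences are given for them.

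Whether insertions made after fertilization were common to pollen and endosperm of a plant was asked with every site that was inherited in no plant and absent from Mu-inactive leaf. Of such pollen sites, 0.926% to 19.5% were found in the endosperm of the same plant (median 12.002%), and 8.70% to 12.8% on average in the endosperms of the other plants (median 11.2%). The mean difference was 0.156 percentage points (95% interval -2.86 to 3.17; 7 of 13 plants above 0; adjusted p = 0.921 by the exact sign-flip test). Of the endosperm sites, 0.254% to 10.1% were found in the pollen of the same plant (median 4.43%), and 3.53% to 5.40% in the pollen of other plants (median 4.46%). That difference was 0.0985 points (95% interval -2.11 to 2.30; adjusted p = 0.921; higher in 6 of 13). The lowest shares stood where the library searched was shallow: 0.926% of pollen sites in endosperm 105, and 0.254% of endosperm sites in pollen 79.

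Most of that spread was removed by setting each pair of libraries against the means of its pollen library and its endosperm library over all 13 by 13 pairs, an alternative added after seeing the data. Pollen sites were then found in their own endosperm 1.01 times as often as the other pairs gave (95% interval 0.981 to 1.03; 8 of 13 plants above 1; p = 0.640 by the exact sign-flip test). The other direction gives nearly the same numbers by construction, since the totals of both libraries cancel, and is no separate result. The upper bound of 1.03 limits a common excess to a few percent of the background.

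**Figure D3:**
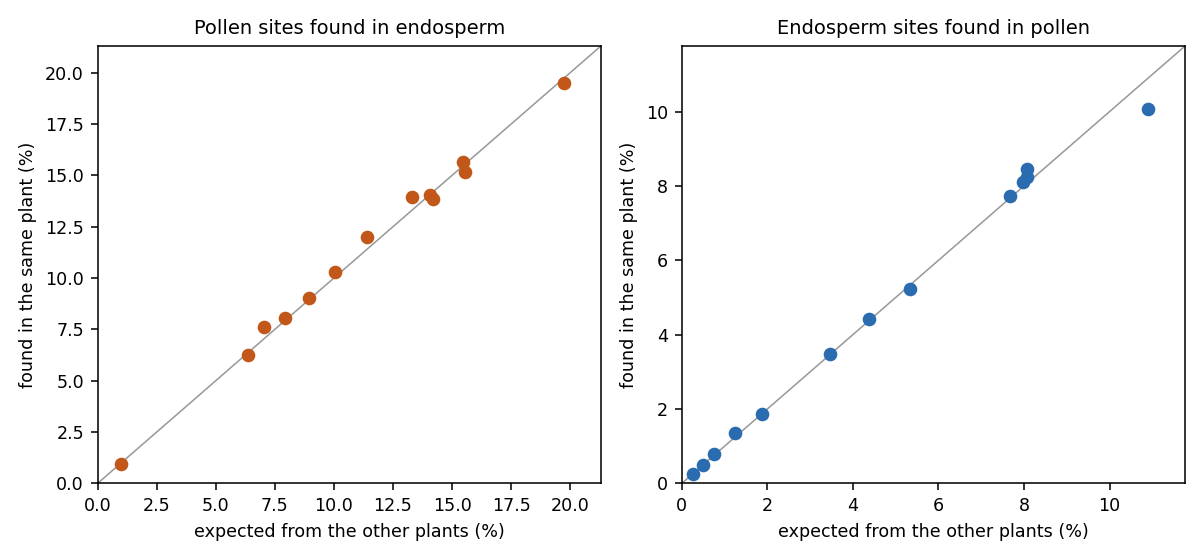
Share of pollen sites found in the endosperm of the same plant (left) and of endosperm sites found in the pollen of the same plant (right), each against the share given by the other pairs of libraries, 1 point per plant; the line marks equality. The 13 points lie along the line in both directions, and their mean ratio to it was 1.01; the panels are not independent.

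Sites found in several plants were a larger part of pollen libraries. They made up 57.0% to 61.0% of all sites in pollen and 51.9% to 57.1% in endosperm, averaging 59.6% ± 1.14 in pollen and 54.3% ± 1.57 in endosperm (SD, n = 13). The share was higher in pollen in 13 of 13 plants, by 5.30 ± 1.47 points. This share depends on the depth and number of the other libraries and is given without a test. Among the sites of the sharing comparison with at least 10 counts and a relative abundance of at least 0.01 in pollen, 444 of 2513 were found in the endosperm of the plant. That is 17.7%, against a mean of 15.2% in the endosperms of other plants. At 0.1 or more it was 22 of 131, or 16.8%, against 11.1%. The same sites of endosperm were found in the pollen of the plant in 55 of 437 cases, or 12.6%, against 9.32% in other pollen. These shares pool plants and libraries of unequal depth and were not tested. The excess for pollen sites at 0.01 or more was largest in plants 52 and 69. Pollen 52 had 142 of 631 in its own endosperm, against 97.5 on average in others, and pollen 69 had 99 of 425, against 64.4. Plants 75, 76, 78, 99, 105 and 106 went the other way, with 5 of 168 in plant 105 against 30.25. Endosperm 52 was the deepest endosperm library and endosperm 105 the shallowest.

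De novo sites of pollen lay slightly more often near the chromosome ends. The ends are the outermost 10% on each side of each of the 10 chromosomes, with lengths taken from the highest position in the files. They held 35.7% to 37.4% of the de novo sites in pollen (median 36.3%) and 34.5% to 36.1% in endosperm (median 35.5%). The ranges overlapped, yet within plants the share was higher in pollen in 13 of 13. The mean difference was 0.831 percentage points (95% interval 0.441 to 1.22; exact sign-flip test, adjusted p = 0.0022; unadjusted 0.000244, the lowest value 13 plants can give). It ran from 0.0131 points in plant 83 to 1.92 in plant 78. In Mu-inactive leaf the ends held 20.02% to 20.4% of the 598 to 5196 sites called on chromosomes per library. In the 8 deep plants the difference was 0.710 points (adjusted p = 0.0234).

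**Figure D4:**
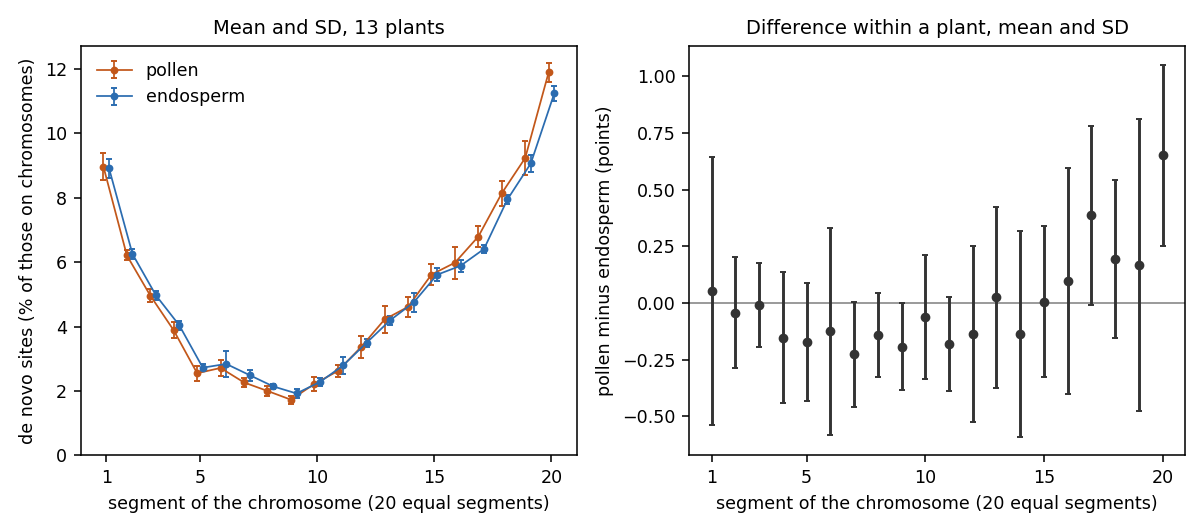
Share of de novo sites on the chromosomes in each of 20 equal segments, summed over the 10 chromosomes (left: mean and SD over 13 plants), and the difference between pollen and endosperm of a plant (right: mean and SD, in percentage points). Both tissues had most sites in the outer segments, and the last segment held 0.653 points more in pollen.

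The profile along the chromosome had the same form in both tissues, with most sites at both ends. Segment 20 held 11.9% ± 0.293 of the sites in pollen and 11.2% ± 0.227 in endosperm (SD, n = 13), higher in pollen in 13 of 13 plants. Segment 1 held 8.97% ± 0.419 in pollen and 8.92% ± 0.301 in endosperm, a difference of 0.0537 ± 0.591 points. The difference was -0.0427 ± 0.246 points in segment 2 and 0.168 ± 0.643 in segment 19. Segments 17 and 18, outside the ends, also held more in pollen, by 0.388 ± 0.395 and 0.193 ± 0.349 points. Segment 9 was the lowest, with 1.73% ± 0.120 in pollen and 1.92% ± 0.152 in endosperm, and pollen was higher in 1 of 13 plants. The single segments were not tested. Sites of 1 count lay in the ends in 36.4% ± 0.485 of cases in pollen and 35.5% ± 0.745 in endosperm. For sites of 2 or more counts the values were 36.1% ± 1.83 in pollen and 35.4% ± 0.406 in endosperm. With at least 2 counts the mean difference of 0.720 points no longer passed (adjusted p = 0.276), while with at least 5 counts it was 2.92 points and passed (adjusted p = 0.0247). With both borders required, 1.11 points did not pass (adjusted p = 0.163). The right border alone gave 1.15 points (adjusted p = 0.0176) and the left border alone 0.573 (adjusted p = 0.124).

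No chromosome passed the test for its share of de novo sites. Of the 10 chromosomes, 0 (0%) passed the exact sign-flip test with p adjusted over the 10, and 0 had an unadjusted p under 0.05. Chromosome 1 had the lowest p. It held 16.2% ± 0.528 of the sites in pollen and 16.5% ± 0.372 in endosperm (SD, n = 13), a mean difference of -0.322 points (p = 0.0698, adjusted p = 0.574). The largest positive difference was 0.211 points on chromosome 4, with 10.6% ± 0.716 in pollen and 10.4% ± 0.223 in endosperm.

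At 1 Mb resolution a small part of the genome differed. Of 2127 bins, 2055 with at least 50 de novo sites were tested with edgeR's quasi-likelihood test with the plant as a block. The number of sites per bin was offset by the de novo sites of each library. At an adjusted p under 0.05, 81 bins were called (3.94%), 30 higher in pollen (1.46%) and 51 lower in pollen (2.48%). Bins of each direction lay on all 10 chromosomes. Chromosome 1, with 16.2% of the de novo sites in pollen and 16.5% in endosperm, held 7 higher and 8 lower bins. Higher bins outnumbered lower ones on chromosome 8, at 4 and 2, and on chromosome 10, at 2 and 1. These counts are too small to compare chromosomes, and no test was made of them. When both borders had to be read, 0 of 957 bins passed, although 109 had an unadjusted p under 0.05. DESeq2 called 21 bins, of which 2 were higher and 19 lower in pollen, and edgeR with TMM factors 67, of which 14 were higher and 53 lower in pollen. Over all tested bins, 20.7% of the de novo sites in pollen and 12.2% of those in endosperm were read at both borders.

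Among the called bins the largest folds towards pollen were on chromosomes 8, 9, 1 and 4. The bin on chromosome 9 from 109000001 to 110000000 had 4.90 ± 2.28 per 10000 de novo sites in pollen and 2.38 ± 1.38 in endosperm (SD, n = 13), higher in 11 of 13 plants (log2 fold 0.92, edgeR adjusted p = 0.00714). The bin on chromosome 1 from 224000001 to 225000000 had 5.38 ± 3.57 in pollen and 3.06 ± 1.39 in endosperm (log2 fold 0.86, edgeR adjusted p = 0.00554). The bin on chromosome 4 from 30000001 to 31000000 had 4.26 ± 2.55 in pollen and 2.72 ± 1.04 in endosperm (log2 fold 0.84, edgeR adjusted p = 0.00816). Each was higher in pollen in at least 10 of 13 plants. On chromosome 8 the bins starting at 36000001 and 38000001 had log2 folds of 1.36 and 0.96, but were higher in pollen in only 8 and 7 of 13 plants.

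The called bins that were lower in pollen reached larger folds. The bin on chromosome 8 from 34000001 to 35000000 held 8 sites over all pollen libraries and 115 over all endosperms (log2 fold -2.40, edgeR adjusted p = 9.12e-05). Of those 115, 31 were in endosperm 76. In plants this bin averaged 0.601 ± 1.25 per 10000 in pollen and 2.44 ± 4.36 in endosperm, and pollen was higher in 4 of 13. The bin on chromosome 5 from 128000001 to 129000000 had 0.481 ± 0.877 in pollen and 1.52 ± 0.603 in endosperm (log2 fold -2.16, edgeR adjusted p = 0.00149). It was lower in pollen in 12 of 13 plants. Its 8 pollen sites lay in 6 libraries, and a shallow pollen library without a site there also counts as lower. The bin on chromosome 6 from 100000001 to 101000000 was also lower in 12 of 13, with 0.720 ± 1.16 in pollen and 2.24 ± 1.74 in endosperm (log2 fold -1.77). Its 17 pollen sites lay in 6 libraries as well. The bins on chromosome 2 from 102000001 and on chromosome 3 from 109000001 had log2 folds of -1.60 and -1.47. Mu-inactive leaf had 12 sites in the bin on chromosome 5, 8 in that on chromosome 2, 1 in that on chromosome 8 and 0 in those on chromosomes 3 and 6. Over all bins lower in pollen it had 1.37 sites per 100 endosperm sites, against 1.93 over all tested bins. The bins on chromosomes 5 and 2 stood above both figures, with 12 sites beside 82 endosperm sites and 8 beside 51.

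Inherited insertions served to check the scale between the tissues, not its absolute level. An insertion transmitted by the father occupies 1 of the 3 genomes of an endosperm cell and is expected in 1 of 2 pollen grains, which makes a ratio of 1.5 if counts follow dosage. Without those present in Mu-inactive leaf, 23 to 64 inherited sites were found per plant, 535 in all. Their median relative abundance ran from 0.659 through 0.851 to 1.05 in pollen and from 0.339 through 0.742 to 1.496 in endosperm. It was higher in pollen in 7 of 13 plants. The mean log2 ratio was 0.24 (95% interval -0.09 to 0.56, exact sign-flip test, adjusted p = 0.210), a fold of 1.18 with an interval from 0.940 to 1.47. That interval ends below 1.5, so the ratio expected from dosage was not met on average. The reason was not tested.

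**Figure D5:**
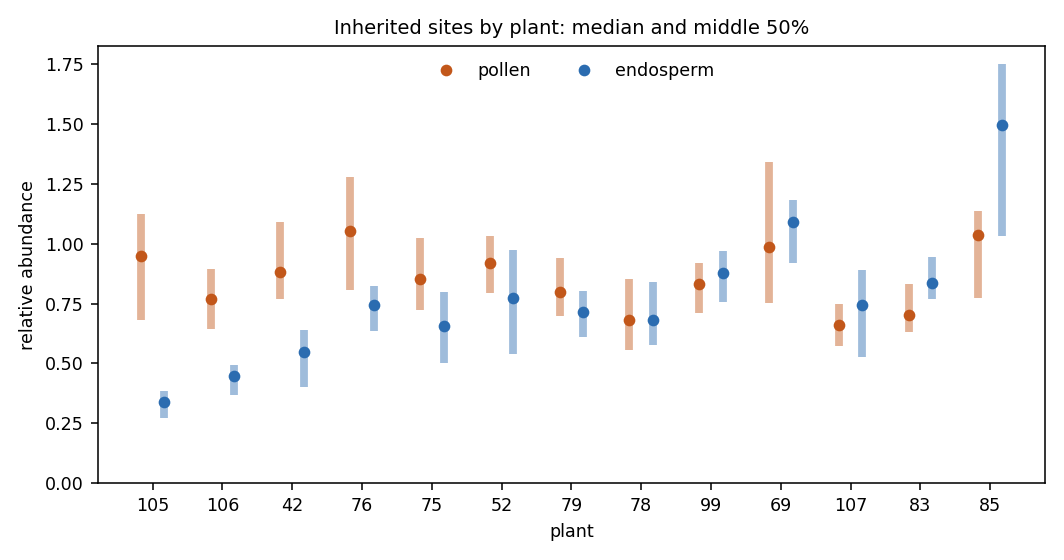
Relative abundance of inherited sites by plant in pollen and endosperm; points are medians and bars span the middle 50% of the sites. Medians were 0.659 to 1.05 in pollen and 0.339 to 1.496 in endosperm, and the plants are ordered by the fold of pollen over endosperm, from 2.80 in plant 105 to 0.691 in plant 85.

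The folds of inherited sites spread from 0.691 in plant 85 to 2.80 in plant 105. In plants 42, 105 and 106 every inherited site was higher in pollen, 43 of 43, 42 of 42 and 42 of 42. In plant 85 it was 3 of 32. The medians averaged 0.855 ± 0.131 in pollen and 0.765 ± 0.290 in endosperm (SD, n = 13), so the SD over plants was smaller in pollen. Plants 42 and 106 had high folds of both inherited sites and load, and plant 85 was lowest in both. Plant 52 had a load fold of 3.65 with an inherited fold of 1.19, and plant 105 had 2.39 and 2.80. The relation over the 13 plants was not tested. Both folds are divided by the same reference levels. With the inherited sites of each plant as the scale, added after seeing the data, the mean log2 ratio of load was 0.50 (exact sign-flip test, adjusted p = 0.00549). With the library total as the scale it was 0.42 (adjusted p = 0.0033).

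The 28 reference sites themselves were not equal between the tissues. In a test added after seeing the data, 8 of 28 (28.6%) differed in relative abundance, 4 higher and 4 lower in pollen (exact sign-flip test, adjusted over the 28). The scale is the median of these same sites. A shift common to all of them could therefore not appear, and the balance of higher and lower sites is partly by construction. The site on chromosome 4 at 213483884 to 213485715 averaged 1.67 ± 0.376 in pollen and 1.12 ± 0.180 in endosperm (SD, n = 13), a fold of 1.48 (adjusted p = 0.0188). The site on chromosome 2 at 180947386 to 180947394 averaged 0.331 ± 0.106 in pollen and 0.577 ± 0.0779 in endosperm, lower in 13 of 13 plants with a fold of 0.550 (adjusted p = 0.00342). Of the 28 sites 19 span more than 9 bp, unlike nearly all others. With their geometric mean in place of the median, the mean log2 ratio of load was 0.77 (adjusted p = 0.0154).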

How the data were processed

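MuSeq2 libraries of 13 pollen and 13 endosperm samples (27 libraries) were analysed. The deposited tables give integer counts for each insertion site, over both borders and border by border. Per the labels' protocols, sheared DNA was ligated to an adapter and the genomic sequence beside Mu ends was amplified by PCR. Bowtie2 is named in the submitters' processing notes; of the genome build, caller, filters and collapsing of molecules nothing is stated in the sources used here. Of 2253850 sites, 163 have a combined count that is not the sum of the borders.

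Reference levels, relative abundance, de novo and inherited sites were computed as given above. Distinct sites used analytic thinning to the shallower level of the plant. P79 and P79T were averaged, and summed for bins. Plants were the replicates and pairs: the same kernel gave both tissues, so the plant was the block in every main test. Single values were compared with exact two-sided sign-flip tests, adjusted by Benjamini-Hochberg over 9 comparisons; bins with edgeR's quasi-likelihood test on counts of sites computed from the deposited counts, with DESeq2 as an alternative; families with an exact permutation test. Alternatives varied depth, labels, family, count minimum, borders, scale and site rules, and each plant was left out in turn. The members, definitions and lists were chosen with earlier results of these data known. The named sites are the 3 of highest relative abundance per tissue among those read at both borders with 10 or more counts, and the named bins the 5 of largest fold in each direction among those called. The procedures were tested on simulated data.

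Reference levels of 69 to 7022 in pollen and 767.5 to 29232 in endosperm put 3 counts, the floor for a count of 0, at very different abundances. Intervals and floors cover counting error only, since counts after PCR may include copies of 1 molecule. Python 3.11.15 with numpy 2.4.6, pandas 2.3.3, scipy 1.17.1 and matplotlib 3.10.9, and R 4.3.3 with edgeR 4.0.16 and DESeq2 1.42.0, were used.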

Additional observations from a re-analysis of the deposited data

Results flagged for a closer look

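Endosperm 85 held 46 abundant de novo sites, far from the other 7 deep endosperms, of which the next had 12. Its partner, pollen 85, held 52. Pollen 52 had a load of 29.9 at sites under 0.01, with the next pollen library, that of plant 42, at 15.8. Dixon's criterion picked out both among 8 libraries of a tissue; chance alone gives about 1 in 20 such groups.

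The excess of load in pollen was larger in family ND67 than in family ND58. The mean log2 ratio of pollen over endosperm was 1.91 in the 2 ND67 plants and 0.53 in the 11 ND58 plants, a difference of 1.39. The exact permutation test of family labels gave p = 0.0128, the smallest it allows, and p = 0.0769 after adjustment over the 6 comparisons between families. The other 5 did not pass either. The labels of pollen 69 give both families. With plant 69, whose log2 ratio was 0.25, counted in ND67, an alternative added after seeing the data, the means were 1.36 in 3 ND67 plants and 0.55 in 10 ND58 plants, a difference of 0.80 (exact permutation test, unadjusted p = 0.108). For the number of abundant sites the difference between the families was 1.66 (exact permutation test, adjusted p = 0.429).

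Plant 74 entered no comparison, because its endosperm label names MuKiller. Pollen 74 had a de novo load of 9.24 at a reference level of 698.5. Endosperm 74 had a load of 6.38 at a level of 10593.5. Both were above the Mu-inactive leaves, whose highest load was 0.0813.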

How the results depend on the processing

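The count minimum moved several values. Requiring at least 2 counts moved distinct sites to 1.26 and at least 5 counts to 2.08, both past the threshold, and at least 5 counts brought the load at rare sites to 0.97 past it (adjusted p = 0.0469). For the chromosome ends the call was lost with at least 2 counts (0.720), both borders (1.11) and the left border alone (0.573), but kept with at least 5 counts (2.92). The load lost its call in the deep plants alone (0.82) and without family ND67 (0.53). For abundant sites the share and number lost theirs with 6 plants, where p cannot go below 0.0312: 14.7 points and 3.08 without plants 69 and 99, and 15.01 points and 2.58 without ND67.

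Values with no call also changed sign. Distinct sites turned to -0.13 in the deep plants, -0.13 without ND67, -0.29 with both borders and -0.23 with library totals as the scale. They ranged from -0.068 to 0.15 on leaving out single plants, below 0 without plant 42 (-0.04), 52 (-0.03), 105 (-0.068) or 106 (-0.01). Endosperm sites in their own pollen turned to -0.175 with at least 2 counts, -0.163 with at least 5 and -0.113 with both borders. Inherited abundance turned to -0.0856 with library totals as the scale. The causes were not tested.

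The main test called 81 of 2055 bins. The number was 22 of 429 with 5 Mb bins, 21 of 2055 with DESeq2 and 0 of 957 with both borders. Leaving out single plants gave 44 of 2035 (without plant 52) to 83 of 2053 (without plant 75). Leaving out any 1 plant kept the calls for load (0.64 to 0.84), the share (12.9 to 16.2 points) and number (2.75 to 3.40) of abundant sites, and the ends (0.740 to 0.899 points). With no replicate block the values of the 9 comparisons are the same by construction, and no call changed (load adjusted p = 0.018, ends adjusted p = 0.00054); 79 bins were called.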

Other observations

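Sites of the sharing comparison, which keeps sites found in several plants, were also looked up in leaf and root of the same plants. In the 5 plants with a leaf library, 46 of 212 pollen sites with at least 10 counts and a relative abundance of at least 0.01 were found in the leaf of the plant (21.7%), against a mean of 19.0% in the leaves of other plants. In the 2 plants with a root library it was 36 of 479 in the root (7.52%), against 6.05% in other roots. All 36 were among the 425 sites of plant 69, and plant 75 had 0 of 54. Of the corresponding endosperm sites, 32 of 115 were found in the leaf of the plant (27.8%), against 17.7% in other leaves, and 4 of 82 in the root (4.88%), against 6.59%. The leaves and roots differ in depth, so these shares were not tested.

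Chromosome 8 held called bins of opposite direction close together. The bin from 34000001 had 8 sites in pollen and 115 in endosperm, while the bin from 36000001 had 30 in pollen and 32 in endosperm and that from 38000001 had 66 in pollen and 93 in endosperm. Pollen libraries had fewer de novo sites in all, so the last 2 counts are an excess relative to the library. The largest part of the pollen sites in the bin from 36000001, 7 of 30, came from plant 52. Its pollen also had the most de novo sites over the whole genome, 42196 against a median of 14150 in pollen.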
